A study of Mus musculus with 6 samples.

Results

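The muscle miRNAs are 8 mature mouse miRNAs of heart and skeletal muscle, taken by name from the 1907 mature miRNAs in the count table: mmu-miR-1a-3p, mmu-miR-133a-3p, mmu-miR-133a-5p, mmu-miR-133b-3p, mmu-miR-206-3p, mmu-miR-208a-3p, mmu-miR-208b-3p and mmu-miR-499-5p (below without the species prefix). They were followed in small RNA-sequencing libraries from mouse ESCs, which were not muscle cells in any library. The C57BL/6 lines RB18 and RB20 were first derived in R2i with LIF and then kept in R2i or moved to 2i or serum medium for at least 10 passages, which gave 6 libraries, 2 per medium, each from a pool of 3 cultures of 1 line. Serum medium held 15% fetal bovine serum. The other two media were serum-free N2B27, with 1 µM PD0325901 (a MEK inhibitor) and 3 µM CHIR99021 (a GSK3 inhibitor) in 2i, and 1 µM PD0325901 and 10 µM SB431542 (an inhibitor of TGF-β receptors) in R2i. All 3 media held 1000 U/ml LIF, so LIF was common to the controls and the treated cells. 2i and R2i are together called the ground state.

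Muscle miRNAs act in striated muscle, where they are among the most abundant miRNAs. The miR-1 and miR-133 genes lie side by side and are transcribed together under myogenic factors such as SRF, MEF2 and MyoD. miR-206 is a relative of miR-1 made in skeletal muscle. A miRNA finds its target mRNAs mainly through its seed, a short stretch near the 5′ end. miR-208a, miR-208b and miR-499 are the "myomiRs" carried in introns of myosin heavy chain genes, and in heart and slow muscle they repress shared targets such as Sox6. In differentiating ESCs, miR-1 and miR-133 are known for promoting mesoderm.

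The mature sequences of 5 members were matched in RefSeq (GRCm38.p6) and are shown to compare their seeds, bases 2 to 8 counted from the 5′ end, which are in capitals.
miR-206-3p: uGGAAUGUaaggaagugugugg
miR-133b-3p: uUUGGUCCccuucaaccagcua
miR-208a-3p: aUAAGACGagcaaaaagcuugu
miR-208b-3p: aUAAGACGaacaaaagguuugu
miR-499-5p: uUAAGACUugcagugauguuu
miR-208a-3p and miR-208b-3p had the same seed and were identical at 19 of their 22 bases. Their 3 differences, with the base of miR-208a-3p first, were G10A, A16G and C18U, all outside the seed. miR-499-5p matched both from base 2 to base 7 and differed at base 8, and among the RefSeq sequences searched no other miRNA carried the bases 2 to 7 of these myomiRs.

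Each myomiR hairpin lies in an intron of a myosin gene on the strand of that gene (GRCm38, GENCODE M21). Mir499, chr2:155622880-155622958 on the plus strand, is in intron 19 of Myh7b. Mir208a, chr14:54949060-54949142 on the minus strand, is in intron 29 of Myh6, the adult cardiac myosin of the mouse. Mir208b, chr14:54975700-54975776 on the same strand, is in intron 31 of Myh7, the myosin of fetal heart and slow muscle. The myomiRs with the most counts were miR-499-5p and miR-208b-3p, and their hairpins are shown with both annotated arms in capitals.
Mir499: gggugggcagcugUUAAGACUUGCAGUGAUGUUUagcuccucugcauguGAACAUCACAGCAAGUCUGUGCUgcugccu
Mir208b: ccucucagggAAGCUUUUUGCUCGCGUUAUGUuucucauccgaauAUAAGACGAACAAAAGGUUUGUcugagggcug

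Mir206 (chr1:20679010-20679082) and Mir133b (chr1:20682769-20682887) are 3686 bp apart on the plus strand, the first in an intron and the second over an exon of the lincRNA Gm28653. miR-1a-3p and miR-133a-3p each come from a pair of genes. Mir1a-1 (chr2:180389048-180389124) and Mir133a-2 (chr2:180398379-180398482) lie 9254 bp apart, outside any other GENCODE gene. Mir1a-2 and Mir133a-1 form a like pair within introns of Mib1, on the strand opposite to that gene. This pair also lies within introns of Mir133a-1hg, an antisense gene on the same strand as the pair. The counts do not tell which gene of a pair a read came from.

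Total counts ranged from 1041858 (R2i, RB18) to 3593356 (R2i, RB20), and the libraries of RB18 were the smaller ones throughout, so that line and depth cannot be told apart. Levels are given as normalized CPM, the count of a miRNA relative to the total count of its library, scaled by edgeR's TMM factors. A mature miRNA is read whole, so no scaling by length was needed. The smallest level told apart from none, 3 counts, lay between 0.858 and 2.57 normalized CPM in a library, and intervals around single libraries are 95% Poisson intervals that cover counting error only. The ESC list, 17 miRNAs of the miR-290 and miR-302 clusters, summed to between 370500 and 421900 normalized CPM in every library, and none of these miRNAs was at 0. The 8 muscle miRNAs together accounted for 0.00976% to 0.0197% of all counts. In bulk libraries, fewer cells of a kind and less RNA per cell cannot be told apart.

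Of the 8 members, 7 had at least 1 count, and 4 passed edgeR's filter on low counts and were tested: miR-1a-3p, miR-133a-3p, miR-208b-3p and miR-499-5p. miR-208a-3p, miR-206-3p and miR-133b-3p were counted but too low to test, and miR-133a-5p was at 0 in every library. Differences were tested with edgeR's quasi-likelihood test over all 6 libraries, and a miRNA was called where the adjusted p was under 0.01 and the fold change over 2. The test was fitted to 571 miRNAs, over which p-values were adjusted.

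miR-1a-3p, a repressor of Hdac4 and of other brakes on muscle differentiation, was counted mainly in serum cells. The serum libraries had 52 counts (RB18) and 55 counts (RB20), those of 2i had 0 in both lines, and those of R2i had 7 (RB18) and 9 (RB20). As normalized CPM, these were 28.5 (interval 21.3 to 37.3) and 27.3 (20.5 to 35.5) in serum and 6.00 (2.41 to 12.4) and 2.57 (1.18 to 4.89) in R2i. The serum libraries lay close together and above all the others, and R2i lay between serum and 2i without overlap. In 2i, a count of 0 allowed up to 1.79 normalized CPM in RB18 and 1.13 in RB20 by the Poisson interval.

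miR-1a-3p passed the filter on low counts only through serum, so its tests against serum lean toward a difference. Against serum it was at least 23.5-fold lower in 2i, with 3 counts per library as the limit there and counting error left out (adjusted p = 0.000215, edgeR). In R2i it fell by 2.89 on the log2 scale (standard error 0.49, adjusted p = 0.00294, edgeR), from 27.9 ± 0.854 to 4.29 ± 2.43 normalized CPM (SD, n = 2 libraries). Leaving out serum RB18, serum RB20 or R2i RB20 ended the R2i call, with log2 fold changes of -2.75, -2.97 and -2.20. Over the 4 ground-state libraries together, 16 counts stood against 107 in serum, a level 17.4-fold lower (10.2 to 31.5, exact interval for counting error).

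2i and R2i differed in miR-1a-3p by 0 against 16 counts. With the limit of 3 counts per library, and counting error left out, the level in 2i was at least 3.61-fold below that in R2i. By the Poisson interval, the 0 counts in 2i allowed levels above that limit (1.79 normalized CPM in RB18 and 1.13 in RB20). The difference did not pass the test (adjusted p = 0.0714, unadjusted p = 0.00171, edgeR), although it did without a filter on low counts (adjusted p = 0.0001).

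miR-133a-3p, which represses SRF and holds myoblasts in proliferation, also had most of its counts in serum. In RB18 it had 93 counts with serum, 1 with 2i and 2 with R2i, and in RB20 it had 36, 1 and 5. In the same order, the normalized CPM of RB18 were 50.9, 0.486 and 1.72, and those of RB20 were 17.9, 0.305 and 1.43. Every ground-state library was below the lower serum library, and the serum libraries themselves differed 2.85-fold (1.92 to 4.32, exact interval for counting error), with RB18 the higher.

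miR-133a-3p also passed the filter only through serum, so its tests against serum lean toward a difference. In 2i, both libraries were under the limit of 3 counts. The pooled counts of miR-133a-3p there gave a level 89.5-fold below serum, with an exact counting interval from 24.3 to 746.9. The fitted log2 fold change was -6.32 (standard error 0.80, adjusted p = 0.00036, edgeR). In R2i it fell by 4.45 on the log2 scale (standard error 0.68, adjusted p = 0.00116, edgeR). The size rested in part on the serum library of RB18, without which it was -5.28 in 2i and -3.42 in R2i, against -6.95 and -5.09 without serum RB20. Without R2i RB20, the R2i value of -4.26 no longer passed (adjusted p = 0.0164, edgeR). Between 2i and R2i the log2 difference was -1.86, with a 95% interval from -4.62 to 0.89 (adjusted p = 0.448, edgeR).

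Their relatives at the other loci were near or at 0. miR-206-3p, the skeletal muscle miRNA, had 3 counts in serum RB20 and 0 in each of the other 5 libraries. miR-133b-3p, its neighbor on chromosome 1, had 1 count, in serum RB18. In serum as well as in the ground state, every library was at or under the limit of 3 counts for both, so no fold was computed for either. miR-133a-5p, the other arm of the miR-133a hairpins, was at 0 also in the serum libraries where miR-133a-3p was highest.

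**Figure D1:**
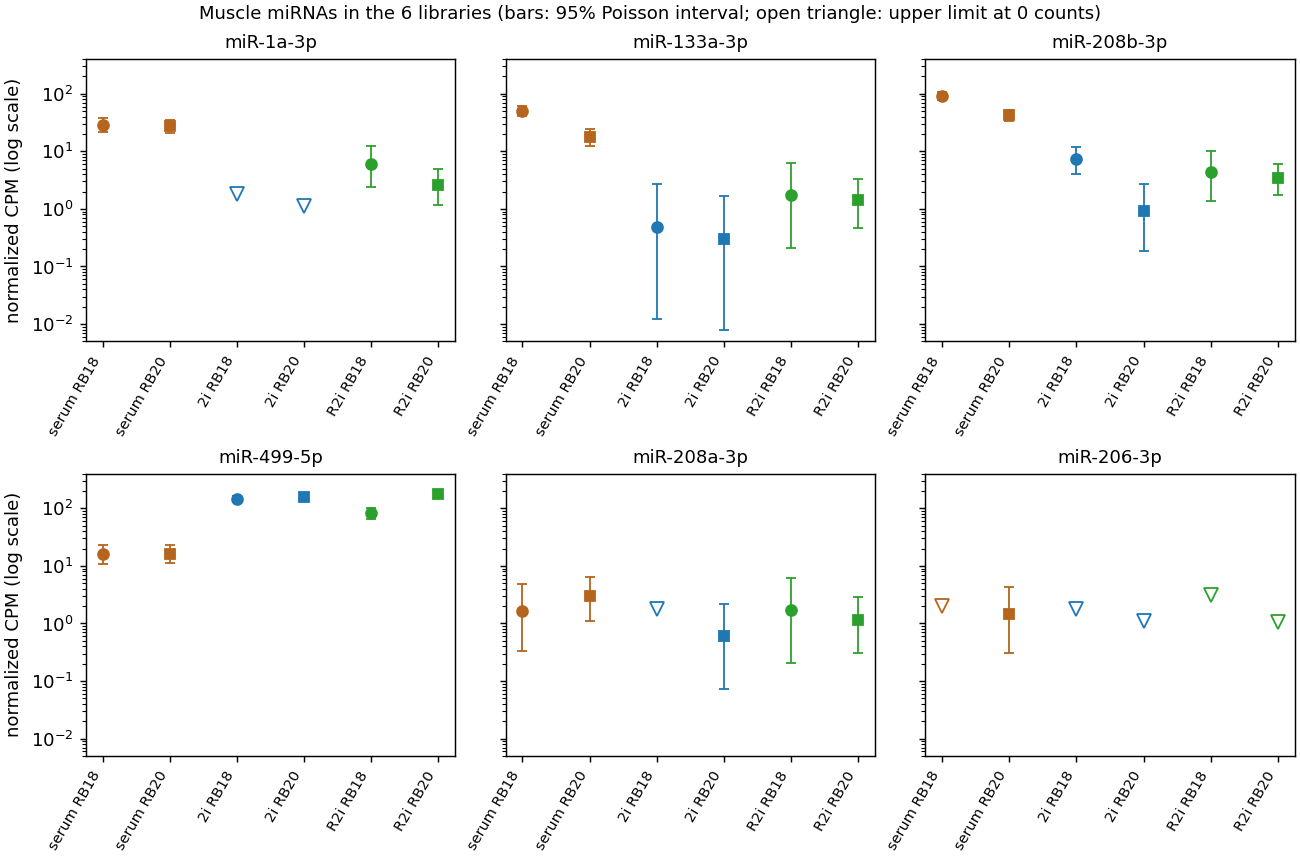
Level of 6 muscle miRNAs in each library, in normalized CPM on a log scale, with the medium and line on the horizontal axis (circles RB18, squares RB20; bars are 95% Poisson intervals, open triangles the upper limit at 0 counts). miR-1a-3p, miR-133a-3p and miR-208b-3p are highest in both serum libraries, miR-499-5p is lowest there, at 15.9 and 16.4, and miR-208a-3p and miR-206-3p stay near the limit of detection.

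miR-208b-3p, the myomiR of Myh7, was the most abundant muscle miRNA in serum cells and fell in both ground-state media. In RB18 it had 165 counts with serum, 15 with 2i and 5 with R2i, and in RB20 it had 86, 3 and 12. The serum levels were 90.4 (77.1 to 105.2) and 42.6 (34.1 to 52.7) normalized CPM, those of 2i were 7.29 and 0.916, and those of R2i were 4.29 and 3.43. All 4 ground-state libraries lay well below the lower serum library. The lines differed 2.12-fold in serum (1.62 to 2.78, exact interval for counting error) and 7.96-fold in 2i (2.25 to 42.9), with RB18 the higher in both.

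Against serum, miR-208b-3p fell in 2i by 4.17 on the log2 scale (adjusted p = 0.00196, edgeR, standard error 0.72). For R2i the fall was nearly as large, a log2 fold change of -4.14 (adjusted p = 0.00256, edgeR, standard error 0.74). In the ground state it was 17.8-fold lower by the fit, at 3.98 ± 2.63 (SD, n = 4 libraries) against 66.5 ± 33.7 normalized CPM (SD, n = 2 libraries). Without serum RB18 neither call passed, with -3.42 for 2i and -3.41 for R2i (adjusted p = 0.0163 and 0.0229, edgeR). The R2i call was also lost without either R2i library (-4.27 and -3.92), and the 2i value moved to -6.09 without 2i RB18 and -3.14 without 2i RB20. The difference between 2i and R2i did not pass the test, at a log2 value of -0.03 and a 95% interval from -2.08 to 2.03 (adjusted p = 0.987, edgeR).

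miR-499-5p, the myomiR of Myh7b, went the other way and was the most abundant muscle miRNA in every ground-state library. In RB18 it had 29 counts with serum, 296 with 2i and 95 with R2i, and in RB20 it had 33, 521 and 612. The normalized CPM of RB18 were 15.9 with serum, 143.8 (127.9 to 161.2) with 2i and 81.5 (65.9 to 99.6) with R2i. Those of RB20 were 16.4, 159.1 (145.7 to 173.3) and 175.1 (161.5 to 189.5). The serum libraries were nearly equal and far below the other 4, and R2i RB18, the library with the fewest counts, was the lowest in the ground state. RB20 was 2.15-fold above RB18 in R2i (1.73 to 2.70, exact interval for counting error).

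Against serum, miR-499-5p rose 9.37-fold in 2i (log2 fold change 3.23, standard error 0.40, adjusted p = 0.000346, edgeR). In R2i it rose 8.03-fold (log2 fold change 3.01, standard error 0.40, adjusted p = 0.000601, edgeR), and without R2i RB20 the log2 value was 2.33. Of the 571 tested miRNAs, 67 had a higher log2 fold change in 2i against serum and 71 in R2i. The media of the ground state differed by 0.22 on the log2 scale, with a 95% interval from -0.59 to 1.03 (adjusted p = 0.792, edgeR). The comparisons of 2i and R2i with serum share the serum libraries.

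The other arm of Mir499 was counted in small numbers. From serum to 2i to R2i, miR-499-3p had 0, 1 and 2 counts in RB18 and 1, 8 and 10 in RB20, too few to test. All libraries of RB18 were under the limit of 3 counts, so the rise of miR-499-3p rested on RB20. It made up 1.37% of the counts of the hairpin over all libraries (22 of 1608, 95% Wilson interval 0.905% to 2.06%). In the single libraries, its share ran from 0% to 2.94%, and all of the intervals overlapped. For Mir208b, 0 of 286 counts came from the 5p arm, which allows a share of up to 1.33% by the same interval.

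miR-208a-3p, the myomiR of Myh6 with the seed of miR-208b-3p, was close to the limit of detection. In RB18 it had 3 counts with serum, 0 with 2i and 2 with R2i, and in RB20 it had 6, 2 and 4. The levels spanned 1.64 to 2.97 normalized CPM with serum, 0 to 0.611 with 2i and 1.14 to 1.72 with R2i, so serum and R2i overlapped. By pooled counts, 8 in the ground state and 9 in serum, the ratio of normalized levels was 0.342, with an exact counting interval from 0.115 to 0.998. In the serum libraries miR-208b-3p was counted 251 times and miR-208a-3p 9 times.

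**Figure D2:**
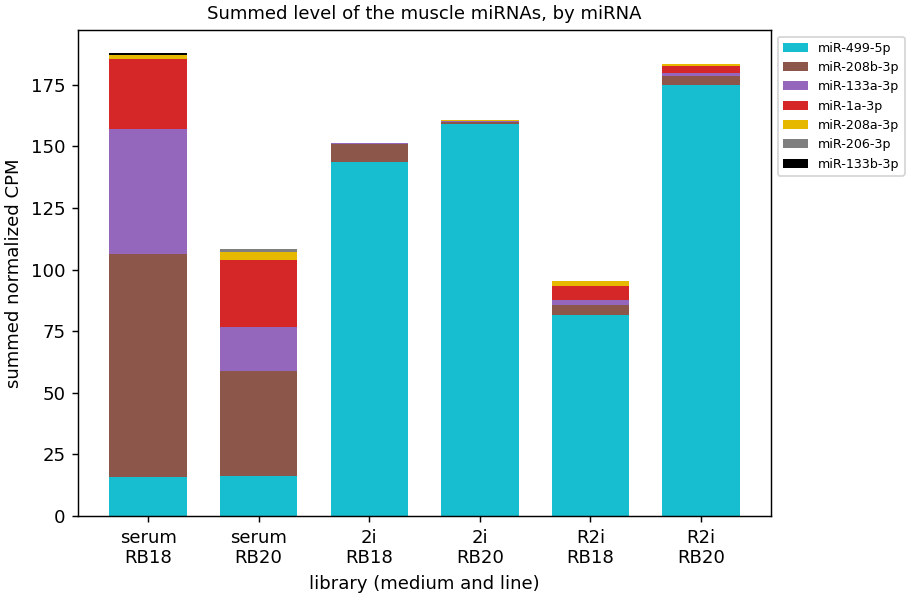
Summed normalized CPM of the muscle miRNAs in each library, with each bar divided by miRNA. The totals lie between 95.2 and 187.8 in all media, but miR-499-5p makes up 8.46% and 15.1% of the counts in serum and 85.6% to 98.9% in the ground state.

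miR-499-5p rose while the other 3 tested members fell, and the summed level of the muscle miRNAs did not separate the media. In normalized CPM (mean ± SD, n = 2 libraries per medium), the sum was 148.2 ± 56.0 for serum, 156.2 ± 6.58 for 2i and 139.4 ± 62.5 for R2i, and the ranges overlapped. The lines went opposite ways, from 187.8 with serum to 151.6 with 2i and 95.2 with R2i in RB18, and from 108.6 to 160.9 and 183.6 in RB20. Without miR-499-5p the mean was 132.1 ± 56.4, 4.80 ± 4.20 and 11.2 ± 3.63 normalized CPM. The plot of summed levels shows the exchange of miR-208b-3p, miR-133a-3p and miR-1a-3p for miR-499-5p in each library.

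The pair of myomiRs that share bases 2 to 7 changed places between media. miR-499-5p stood at 0.176 (RB18) and 0.384 (RB20) of miR-208b-3p in serum. In 2i the ratio was 19.7 in RB18 and 173.7 in RB20, and in R2i it was 19.0 and 51.0. The highest upper bound in serum was 0.579 and the lowest lower bound in the ground state was 7.86 (exact 95% intervals for counting error). The 3 myomiRs summed to 84.9 ± 32.5 for serum, 155.8 ± 6.72 for 2i and 133.6 ± 65.1 for R2i, in normalized CPM (mean ± SD, n = 2 libraries per medium). These are ratios of read counts, not of molecules.

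**Figure D3:**
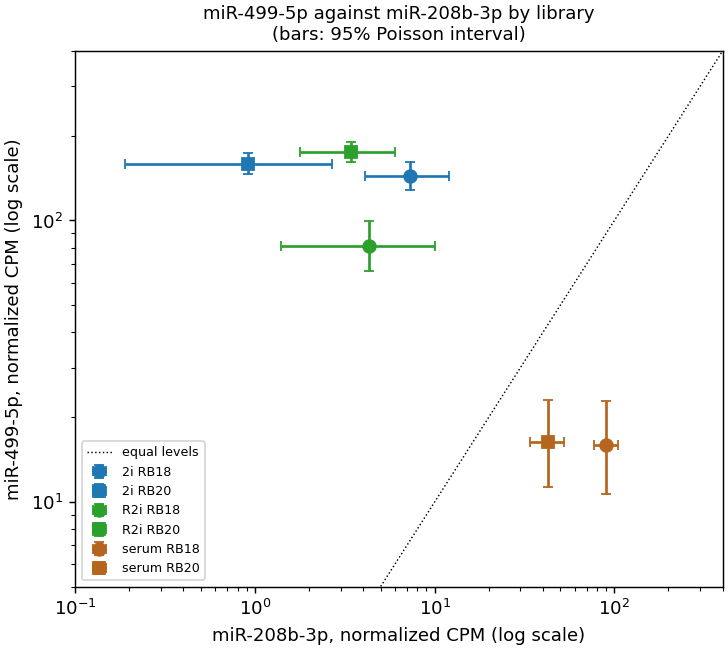
miR-499-5p against miR-208b-3p in the 6 libraries, both in normalized CPM on log scales, with 95% Poisson intervals and a dotted line at equal levels. Both serum libraries lie below the line and all 4 ground-state libraries above it.

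Read against all miRNAs, calls in these comparisons were common. Between 2i and serum 34.2% of the tested miRNAs were called, 16.8% higher and 17.3% lower in 2i, and between R2i and serum 30.6%, with 15.1% higher and 15.6% lower. For the ground state against serum the share was 37.0%, with 17% higher and 20% lower. Among the 4 tested muscle miRNAs, 3 were called lower and 1 higher in each of these comparisons. miR-1a-3p and miR-133a-3p reached the filter only through serum. The test against serum of a miRNA that passes in that way leans toward a difference and is no independent support. miR-208b-3p passed it also when only the libraries of 2i and R2i were fitted. The count of called members is a description only. The ground-state libraries of all 4 were separate from both serum libraries, as was true of 61.5% of the tested miRNAs (29.1% above serum and 32.4% below). Such separation was commoner still for single media, at 77.8% for 2i (39.2% above and 38.5% below) and 70.6% for R2i (32.4% above and 38.2% below).

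Between 2i and R2i, 0 of the 4 were called, against 0.35% of all tested miRNAs (2 miRNAs, both higher in 2i, edgeR). The libraries of 2i and R2i were separate for 57.1% of the tested miRNAs, 29.9% above and 27.1% below. Among the 4 they were separate for miR-1a-3p and miR-133a-3p, both below in 2i. For miR-133a-3p the separation rested on 1 and 1 counts in 2i against 2 and 5 in R2i (RB18 and RB20). At an unadjusted p under 0.05 stood 1 of the 4, miR-1a-3p, and 18.2% of all tested miRNAs (104). When cell line was added to the fit as a block, the same 3 were called lower and miR-499-5p higher in the ground-state comparisons, and 0 were called between 2i and R2i.

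**Figure D4:**
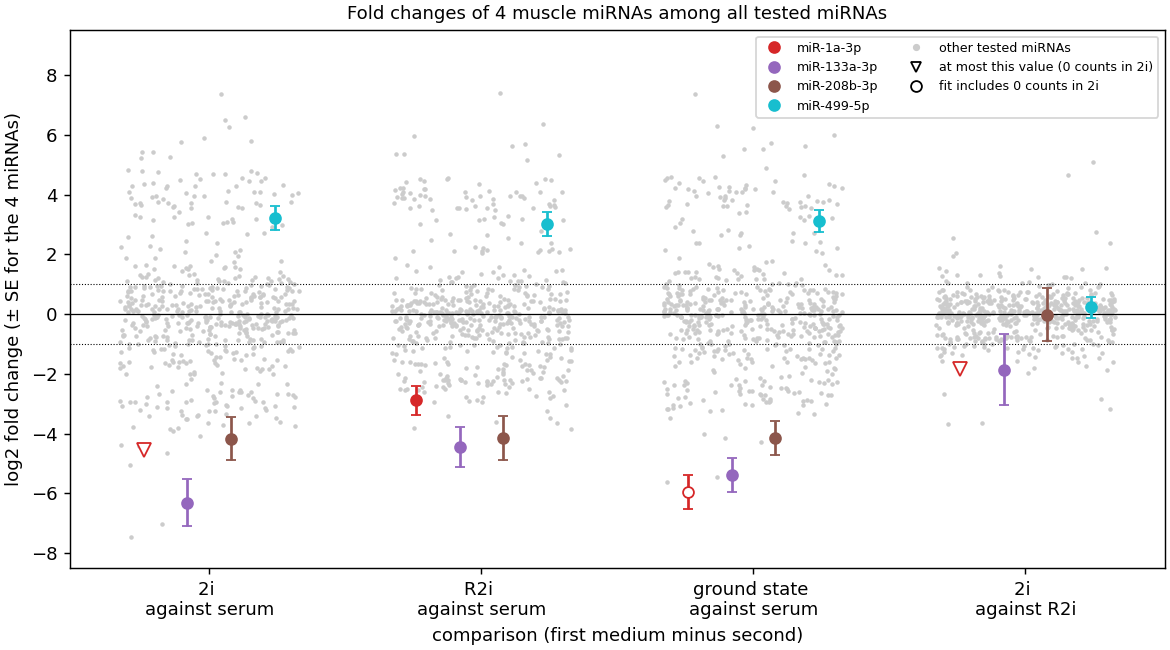
Log2 fold changes of the 4 tested muscle miRNAs (colored, ± standard error) among the other tested miRNAs (gray) in 4 comparisons, first medium minus second, with dotted lines at 2-fold. Open triangles mark the upper limit of the change where miR-1a-3p had 0 counts in 2i, taken at 3 counts per library without counting error. The ground-state value of miR-1a-3p (open circle) includes those zeros. Against serum, 3 miRNAs lie below -2 and miR-499-5p lies near 3 in each comparison.

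The other arms and paralogs of these families were rarely counted. Of the 10 listed, 4 had a count and 0 passed the filter. miR-1b-3p, from a gene on the strand opposite to Mir1a-2, had 1, 4 and 0 counts in RB18 (serum, 2i, R2i) and 2, 2 and 6 in RB20, and was not highest in serum. miR-1b-5p had 0 to 2 counts in a library, miR-1a-1-5p had 1 count, in serum RB18, and miR-133c was at 0 throughout.

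The 25 listed muscle-linked miRNAs of other families summed to between 43570 and 65630 normalized CPM in a library, and 20 were tested. Against serum, 1 was higher and 5 lower in 2i, and 1 was higher and 2 lower in R2i, with median log2 fold changes of -0.40 and -0.38, beside -0.03 and -0.07 over all tested miRNAs. In both media, miR-431-5p, which lies in the Dlk1-Dio3 locus and is linked to muscle regeneration, was higher (4.76 in 2i and 4.22 in R2i). miR-23a-3p, a repressor of the ubiquitin ligases of muscle atrophy, was lower (-1.53 and -2.06), as was miR-155-5p (-1.64 and -1.58). miR-181a-5p, miR-503-5p and miR-675-3p were called lower against serum in 2i and not in R2i, but none of the 20 passed the test of 2i against R2i by edgeR. With the block, 3 rather than 5 were lower in 2i. The most abundant of the list, miR-26a-5p, had log2 fold changes of 0.23 and 0.05 and was not called, and neither was miR-378a-3p at 0.34 in both media.

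Markers of other cell types were compared in the same libraries. None of the 7 tested mesenchymal miRNAs, 8 neural miRNAs and 3 endoderm and liver miRNAs was called in any comparison by edgeR. The mesenchymal list, led by miR-143-3p, summed to 2124 and 2859 normalized CPM in serum and 3411 to 4828 in the ground state, so it was higher where miR-1a-3p, miR-133a-3p and miR-208b-3p were lower. Of its 10 miRNAs, miR-214-3p and miR-214-5p were at 0 in 3 and 5 of the 6 libraries. The neural list summed to 1097 and 1222 normalized CPM in serum and 901.0 to 1065 in the ground state, and the endoderm and liver list to 1413 to 2022 and 1468 to 2474. The epithelial list moved with the serum-high muscle miRNAs. It summed to 11400 and 13730 normalized CPM in serum and 5082 to 7883 in the ground state, with 4 of 7 called lower in 2i (3 with the block) and 3 of 7 in R2i and none of its markers at 0, and its part in the result was not tested. Those called in both media were miR-200a-3p, miR-200b-3p and miR-203-3p, the last at a mean of 205.4 normalized CPM with serum, 9.65 with 2i and 17.2 with R2i.

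Serum medium alone held fetal bovine serum, so small RNA brought in by the serum and small RNA made by the cells cannot be told apart in the comparisons with serum. The miRNAs abundant in blood did not share one direction. miR-451a of red blood cells had 0 and 3 counts in serum and 22 to 66 in the ground-state libraries, and its neighbor miR-144-3p had 1 and 0 in serum and 4 to 14. The miR-486 pair, made in both red blood cells and muscle and on both lists, lay the other way, with means of 81.9 normalized CPM with serum, 45.5 with 2i and 42.8 with R2i for miR-486b-5p and 42.4, 30.5 and 25.3 for miR-486a-5p. Neither was called (ground-state log2 fold changes of -0.90 and -0.60, adjusted p = 0.00441 and 0.0342, edgeR). miR-122-5p of liver, which circulates in blood, had 5 and 7 counts in serum and 0 to 6 in the ground state, and miR-223-3p was at 0 in every library. In normalized CPM, the blood and endothelial list summed to 3974 and 4529 with serum, 2920 and 5928 with 2i, and 1589 and 2334 with R2i. Of its 8 tested miRNAs, miR-451a was called higher in 2i (not with the block) and in R2i, and miR-142a-5p lower in R2i.

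The miRNAs with the pattern most like each member were taken by the root mean square difference of log2(normalized CPM + 0.5), centred on each miRNA's mean over the 6 libraries. For miR-133a-3p these were miR-483-3p (0.39), miR-483-5p (0.62) and miR-675-3p (0.62), among 567 miRNAs compared with a median difference of 2.26. miR-483-3p was also nearest to miR-1a-3p (0.85), followed by miR-675-3p (0.97) and miR-203-3p (1.01). The miR-483 hairpin lies in Igf2 and the miR-675 hairpin in H19. For miR-208b-3p the nearest were miR-669e-3p (0.80), miR-669e-5p (0.84) and miR-675-3p (0.85).

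miR-499-5p was nearest to miR-382-3p (0.29), miR-485-3p (0.35) and miR-679-5p (0.39), which lie in the Dlk1-Dio3 locus. The mean normalized CPM of miR-485-3p was 11.2 with serum, 106.9 with 2i and 105.5 with R2i. Among the members, miR-133a-3p and miR-208b-3p were the closest pair (0.75), and miR-499-5p differed from each of the other three by 3.47 or more.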

How the data were processed

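Small RNA of 6 mouse ESC libraries was sequenced, 1 per line and medium. The authors trimmed reads, aligned them to the mouse genome and deposited counts per mature miRNA, without normalization. The submitters' processing notes name cutadapt 1.3, Bowtie 1.1.2, featureCounts 1.5 and the build mm10. How reads that match several loci were counted is not given in the sources used here. The deposited log2 values equaled log2(count / size factor + 1) within 0.01 in all 7398 cases, and were used only for an alternative.

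Counts were tested with edgeR 4.0.16 (R 4.3.3): TMM, filterByExpr (minimum count 10, minimum total 15), 1 coefficient per medium over all 6 libraries, and Benjamini-Hochberg adjustment over 571 miRNAs. The test was tried on simulated counts. The spread between 2 pools of different lines is the error here. Alternatives were DESeq2 1.42.0, limma 3.58.1, library totals, other filters, adjusted p under 0.05, fewer libraries, and cell line as a block. Libraries of a line share their origin, which pairs them by the sample titles. Differences between RB20 and RB18 correlated across miRNAs at 0.21 (serum and 2i), 0.22 (2i and R2i) and -0.13 (serum and R2i). The members and lists were chosen with earlier results of these data known. Named are the 8 members, their other arms and paralogs, fixed lists of muscle-linked and cell type miRNAs, and the 3 miRNAs most like each tested member. Of the lists, those of miRNAs outside the families name the called ones, the most abundant and the markers a result turns on.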

Additional observations from a re-analysis of the deposited data

Results flagged for a closer look

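In 2 cases the difference between 2i and R2i went opposite ways in the lines, with 1 library per line and medium, and the difference between lines was not tested. For miR-208b-3p, 2i minus R2i was 0.70 in RB18 and -1.47 in RB20 on the log2(normalized CPM + 0.5) scale. For miR-499-5p it was 0.82 in RB18 and -0.14 in RB20.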

How the results depend on the processing

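In the ground state against serum, miR-1a-3p, miR-133a-3p, miR-208b-3p and miR-499-5p kept their direction and call under all 12 alternatives, with log2 fold changes from -6.27 to -4.25, -6.02 to -4.35, -5.12 to -3.42 and 2.79 to 3.35. For miR-1a-3p and miR-133a-3p, which passed the filter only through serum, keeping the call is no independent support. Fitted values of miR-1a-3p that include the zeros of 2i depend on the prior count and are no bounds. The cell line as a block changed no call of a member (miR-208b-3p -4.05). Leaving out 1 library, where the remaining library of that medium is assumed to vary like the others, moved the number of members called in R2i against serum to between 1 and 4 (127 to 178 of all miRNAs, against 175), with log2 fold changes from -3.41 to -2.20 for miR-1a-3p, -5.09 to -3.42 for miR-133a-3p and -4.65 to -3.41 for miR-208b-3p. In 2i against serum, miR-208b-3p ran from -6.09 to -3.14. In 2i against R2i, it ran from -1.93 to 0.97 and miR-499-5p from -0.17 to 0.91, so the direction of both depended on the library left out, with adjusted p from 0.269 to 0.998 (edgeR). The only member to gain a call there was miR-1a-3p without a filter on low counts (-6.11), which gave 1 called member. The number of all miRNAs called in 2i against R2i was 2, and 16 with DESeq2, 25 without the filter, 0 with the block, 0 with only the compared libraries, and 0 to 3 when leaving out 1 library. miR-1a-3p and miR-133a-3p could not be fitted in 2i against R2i alone, where they did not pass the filter. Depth limits miR-206-3p, miR-133b-3p and miR-208a-3p, at 17 counts or fewer in all. Fitting only R2i and serum shifted the median of all miRNAs by 0.14, and no other alternative by over 0.1. The cause of these changes was not tested.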
